A study of Mus musculus with 24 samples.

Results

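The 38 genes described here act in the integrated stress response and the unfolded protein response of mouse embryonic fibroblasts (MEFs), and they were measured as RNA in cells with and without the kinase LKB1. In the integrated stress response, kinases that sense amino acid shortage, unfolded protein, viral RNA or lack of heme phosphorylate the translation factor eIF2α. Most translation then slows, while translation of the transcription factor ATF4 goes up, and ATF4 switches on genes for amino acid synthesis and uptake. The unfolded protein response starts in the endoplasmic reticulum (ER) from the sensors PERK, IRE1α and ATF6 and raises ER chaperones and the machinery that degrades misfolded protein. ATF4 and XBP1 are controlled to a large part by translation and by splicing, which counts of reads per gene do not show. The members were taken by name from a list of ATF4, amino acid and ER stress genes and make up 38 of the 55471 genes counted. They fall into 8 stress regulators, 8 enzymes of amino acid and folate metabolism, 6 amino acid transporters, 3 secreted or surface proteins, 3 genes for UPR sensors and Xbp1, and 10 ER chaperones and factors of ER quality control.

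RNA was sequenced from 24 libraries in 8 groups of 3. The groups were WT MEFs, Lkb1-/- MEFs, and clones A1 and A2 of Lkb1-/-/Crtc2-/- MEFs, each untreated or given the cytokine IL-1β for 6 hours. LKB1, the product of Stk11, is a tumor suppressor kinase that keeps the coactivator CRTC2 out of the nucleus through the SIK kinases. The cells belong to 3T3 lines, immortalized fibroblasts, and carry no other allele or agent named in the labels. Lkb1-/- MEFs share the loss of LKB1 with both clones, each of which is 1 clone made from Lkb1-/- cells with CRISPR-Cas9, so an effect of Crtc2 deletion and a property of that clone cannot be told apart from a single clone. Nothing in the sources used here says that the 3 libraries of a group came from separate cultures, so each p-value measures the spread between these libraries, which may be technical.

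Promoters are shown first for the members in which a known stress element was found, because they mark the genes by which an ATF4 or ER stress program would be read. The promoter table of RefSeq (GRCm38.p6), with 250 bases before to 50 bases after each start site, held 34 of the 38 members. Both strands were searched for the C/EBP-ATF response element (CARE, TGATGCAA), to which ATF4 can bind, and for the ER stress response element (ERSE), CCAAT and CCACG with 9 bases between them. The CARE was found in 5 members and in 279 of the 27025 genes with a promoter (1.03%). The ERSE was found in 4 members and in 37 genes (0.137%), and no member held both elements. Each sequence is written 5′ to 3′ on the strand of its gene, with the element, in either orientation, in capitals.
Chac1, chr2:119351019-119351086 (+): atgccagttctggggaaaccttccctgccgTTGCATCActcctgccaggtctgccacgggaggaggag
Slc7a11, chr3:50443623-50443709 (-): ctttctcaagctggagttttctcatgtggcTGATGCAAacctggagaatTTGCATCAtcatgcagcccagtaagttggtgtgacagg
Pycr1, chr11:120643814-120643881 (-): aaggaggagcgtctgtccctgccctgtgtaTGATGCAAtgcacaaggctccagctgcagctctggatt
Herpud1, chr8:94386287-94386354 (+): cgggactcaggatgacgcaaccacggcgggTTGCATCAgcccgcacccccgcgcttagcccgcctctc
Vldlr, chr19:27216815-27216832 (+): aatagTTGCATCAgcgct
Hspa5, chr2:34772020-34772048 (+): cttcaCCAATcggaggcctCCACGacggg
Hsp90b1, chr10:86705510-86705686 (-): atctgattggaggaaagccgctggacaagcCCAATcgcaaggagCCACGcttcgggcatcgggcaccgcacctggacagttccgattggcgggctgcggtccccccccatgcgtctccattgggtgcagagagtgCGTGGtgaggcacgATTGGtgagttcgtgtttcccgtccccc
Calr, chr8:84847045-84847123 (-): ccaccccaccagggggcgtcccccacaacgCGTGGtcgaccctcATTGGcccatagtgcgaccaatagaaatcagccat
Creld2, chr15:88819490-88819568 (+): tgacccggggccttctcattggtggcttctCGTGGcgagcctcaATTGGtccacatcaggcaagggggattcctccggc

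Slc7a11 held 2 CAREs in opposite orientations, and Hsp90b1 held 2 ERSEs. A match describes the letters of these windows and not a bound site, and other members may hold elements outside the windows or with other letters.

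The libraries held 38842901 to 48594394 counts on genes (median 42431965). Levels are given in CPM, the usual depth-scaled unit of RNA-seq, with TMM library sizes. Tests used edgeR's quasi-likelihood method on 17522 genes at once, and a gene was called where its FDR, the p after Benjamini-Hochberg adjustment, was under 0.05. Stk11 stood at 84.6, 85.5 and 87.9 CPM in the untreated WT libraries and at 18.7, 17 and 16.3 CPM in the untreated Lkb1-/- libraries, a log2 fold change of -2.31 (SE 0.07, FDR = 1.1e-16), so reads on the gene remained. Crtc2 was 0.92 lower on the log2 scale in clone A1 and 0.70 lower in clone A2 than in untreated Lkb1-/- MEFs, which says nothing of the protein because the guides cut in the first exon. Of the fibroblast markers, Col1a1, Col1a2, Col3a1, Pdgfrb and Vim were measured in every group and Thy1 was at or near 0, with group means of 0 to 0.0368 CPM. Epithelial, leukocyte and endothelial markers had group means of at most 0.232 CPM, except Cd68 at 3.28 to 6.11 CPM and Kdr at 0.390 to 3.10 CPM. In untreated Lkb1-/- against WT MEFs, Col1a2 was lower by 3.63 on the log2 scale and Col1a1 by 0.68, and Kdr was higher by 2.73, and the part of these genes in the members' changes was not tested. Libraries of a group correlated at 0.975 or more, and untreated replicate 1 of clone A2 had the lowest mean correlation with its own group (0.9795). In bulk RNA, fewer cells of a kind and less RNA per cell cannot be told apart.

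Untreated Lkb1-/- MEFs were compared with untreated WT MEFs to ask how these genes differ in cells without LKB1. Each genotype is read from cells given as 1 line, so loss of LKB1 and a difference between the lines cannot be told apart. Of the amino acid transporters 5 of 6, and of the enzymes 6 of 8, were called lower in Lkb1-/- MEFs, some of them with calls that alternatives lost. Atf6 and Stc2 fell furthest, and Cebpb and Vldlr rose, while the difference in Atf4 itself was smaller than its error. Of the 37 members tested, 6 were called higher and 21 lower. Over all genes tested, 30.1% were called higher and 25.8% lower in this comparison. Without replicate 3 of Lkb1-/- the members' counts were 3 higher and 25 lower, beside 25.5% and 26.2% of all genes. The members' median log2 fold change was -0.36, beside 0.04 over all genes. In 34 of the 37 members the 3 WT and 3 Lkb1-/- libraries did not overlap, as they did not in 64.8% of all genes tested. The remaining member, Gdf15, a secreted stress hormone, had between 0 and 6 reads in each of the 24 libraries and was not tested.

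**Figure D1:**
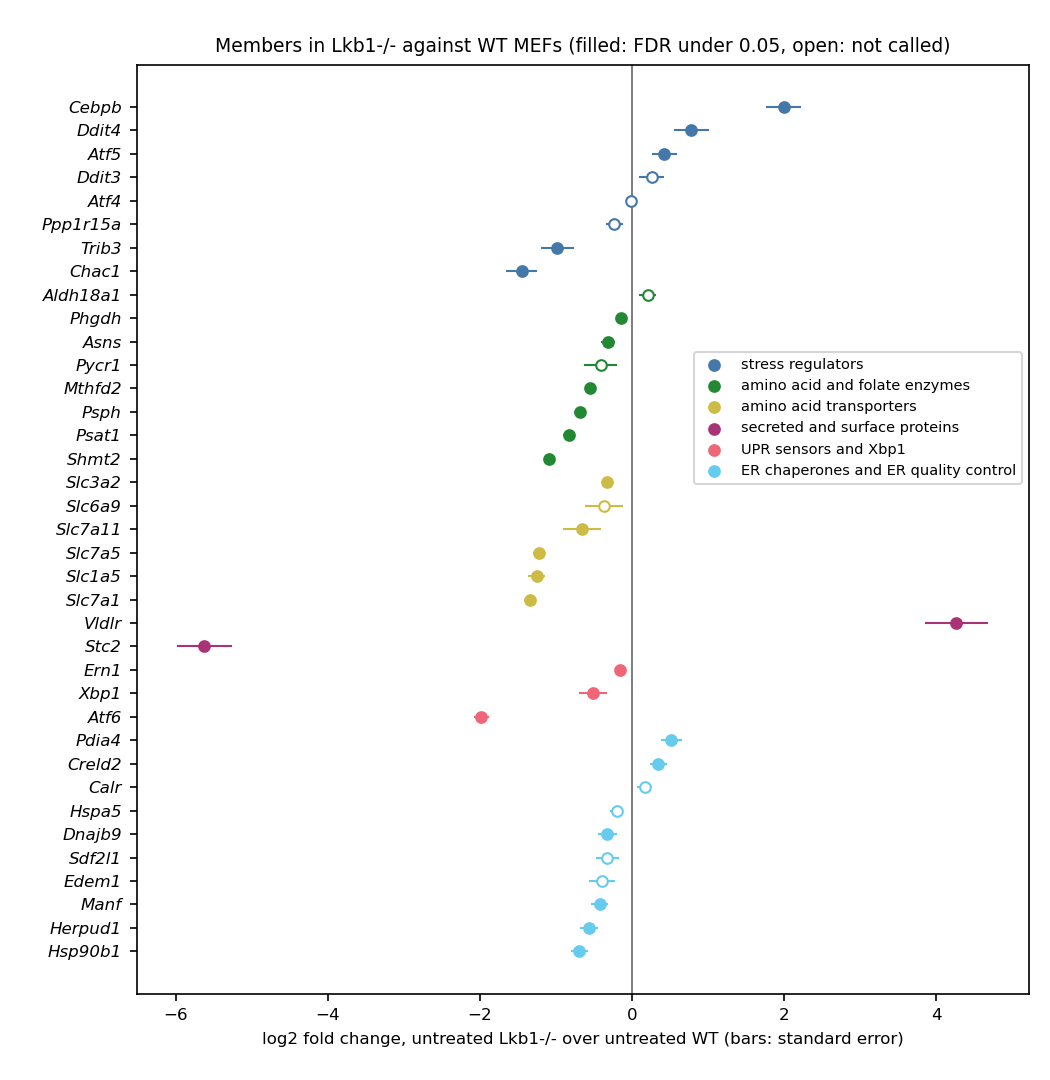
The horizontal axis gives the log2 fold change of each tested member in untreated Lkb1-/- over untreated WT MEFs (3 libraries a group), with bars for the standard error and colors for the 6 gene lists. Filled points were called at an FDR under 0.05; all called transporters and enzymes lie left of 0, Stc2 lies at -5.62 and Vldlr at 4.27.

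Among the stress regulators, 3 were called higher and 2 lower of 8. Atf4 (chr15:80255184-80257541) stood at 278, 271 and 254 CPM in WT and at 264, 269 and 262 CPM in Lkb1-/- MEFs. The groups overlapped, and the log2 fold change was -0.01 (SE 0.05, FDR = 0.86), with either sign under other scalings. Ddit3 (chr10:127290774-127296288), which encodes the pro-apoptotic factor CHOP, stood at 4.29, 4.65 and 4.23 CPM in WT and at 5.21, 6.29 and 4.29 CPM in Lkb1-/- MEFs. It was not called (log2 fold change 0.26, SE 0.17, FDR = 0.21), and only 69.8% of the stranded reads at its locus lay on its own strand. Unstranded counts turned its value to -0.26.

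Cebpb (chr2:167688915-167690418) encodes C/EBPβ, a transcription factor of stress and inflammation that can pair with ATF4. It stood at 51.4, 49.5 and 62.0 CPM in WT and at 185, 220 and 248 CPM in Lkb1-/- MEFs, a 4.0-fold rise (log2 fold change 2.0, SE 0.23, FDR = 1.4e-07). Each Lkb1-/- library lay far above each WT library. Chac1 (chr2:119351229-119354381), an enzyme that degrades glutathione and a target of ATF4 and CHOP, went the other way. It stood at 24.1, 24.5 and 23.4 CPM in WT and at 8.53, 9.0 and 8.88 CPM in Lkb1-/- MEFs, 2.73-fold lower (log2 fold change -1.45, SE 0.20, FDR = 2.0e-06). Trib3, a pseudokinase that ATF4 and CHOP induce, was also lower, with 18.9 ± 0.759 CPM (SD, n = 3) in WT and 9.59 ± 1.03 CPM in Lkb1-/- MEFs (log2 fold change -0.98). Ddit4, an inhibitor of mTORC1, was higher by 0.78 on the log2 scale (FDR = 0.006), and so was Atf5, a transcription factor translated like ATF4, by 0.43 (FDR = 0.029). The call of Ddit4 was lost without replicate 3 of Lkb1-/- (FDR = 0.051), and that of Atf5 without any 1 of the 6 libraries (FDR from 0.055 to 0.097). Unstranded counts also lost the call of Atf5 (0.37, FDR = 0.067), and only 62.6% of the stranded reads at its locus lay on its own strand. Ppp1r15a, the phosphatase subunit that reverses eIF2α phosphorylation, was not called (log2 fold change -0.23, FDR = 0.083).

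All 6 called enzymes of amino acid and folate metabolism were lower in Lkb1-/- MEFs, of 8 tested. Shmt2 (chr10:127517123-127522444), the mitochondrial enzyme that splits serine into glycine and a folate-bound carbon, stood at 393, 359 and 346 CPM in WT and at 180, 170 and 165 CPM in Lkb1-/- MEFs. That is 2.13-fold lower (log2 fold change -1.09, SE 0.06, FDR = 1.7e-12), with no overlap. Psat1 (chr19:15904678-15947337) carries out the transamination step of serine synthesis. It stood at 728, 701 and 665 CPM in WT and at 407, 380 and 389 CPM in Lkb1-/- MEFs, 1.78-fold lower (log2 fold change -0.83, SE 0.07, FDR = 1.9e-09). The other called enzymes were Psph (-0.68), the last step of serine synthesis, Mthfd2 (-0.55), a mitochondrial folate dehydrogenase, Asns (-0.31), which makes asparagine, and Phgdh (-0.14), the first step of serine synthesis. The call of Phgdh was lost in 6 of 15 alternatives, among them upper quartile scaling (log2 fold change -0.06). The enzymes of proline synthesis were not called, with -0.41 for Pycr1 (FDR = 0.11) and 0.21 for Aldh18a1 (FDR = 0.13).

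Of the 6 transporters, 5 were called and all of these were lower. Slc7a1 (chr5:148327410-148399904), the main importer of arginine and lysine, stood at 356, 329 and 313 CPM in WT and at 134, 138 and 123 CPM in Lkb1-/- MEFs, 2.53-fold lower (log2 fold change -1.34, SE 0.08, FDR = 5.8e-12). Slc1a5 (chr7:16781340-16798274), an importer of glutamine, stood at 116, 98.4 and 98.3 CPM in WT and at 49.6, 41.3 and 40.9 CPM in Lkb1-/- MEFs, 2.37-fold lower (log2 fold change -1.25, SE 0.11, FDR = 2.5e-09). In both genes the highest Lkb1-/- library lay below the lowest WT library. Slc7a5, the importer of leucine and other large neutral amino acids, was 2.34-fold lower, whereas Slc3a2, the heavy chain with which it and Slc7a11 pair, was 1.25-fold lower. The cystine importer Slc7a11 had a log2 fold change of -0.65 (SE 0.25, FDR = 0.031). Its call was lost without replicate 1 of WT (FDR = 0.056), replicate 3 of WT (FDR = 0.059) or replicate 1 of Lkb1-/- (FDR = 0.07), and with unstranded counts (log2 fold change -0.40, FDR = 0.13), which add reads of the opposite strand. Slc6a9, a glycine importer, was not called (log2 fold change -0.36, FDR = 0.23).

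The 2 tested genes of secreted and surface proteins moved furthest of the members and in opposite directions. Stc2 (chr11:31357307-31370074) encodes stanniocalcin-2, a secreted glycoprotein. It stood at 11.7, 8.70 and 7.41 CPM in WT and at 0.0906, 0.371 and 0.0952 CPM in Lkb1-/- MEFs, from 4, 16 and 4 reads (log2 fold change -5.62, SE 0.36, FDR = 2.1e-11). Vldlr (chr19:27216484-27254231), a lipoprotein receptor, stood at 0.380, 0.714 and 0.261 CPM in WT, from 17, 31 and 10 reads, and at 7.11, 9.37 and 10.1 CPM in Lkb1-/- MEFs (log2 fold change 4.27, SE 0.42, FDR = 1.9e-08). The size of each change rests on the few reads of its low group. A filter of 10 counts in every library removed Stc2, and Vldlr passed it with 4.31 on the log2 scale.

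All 3 genes of the UPR sensors and Xbp1 were called lower. Atf6 (chr1:170704674-170867771), the ER membrane sensor whose cut fragment enters the nucleus as a transcription factor, stood at 137, 130 and 133 CPM in WT and at 33.4, 32.9 and 35.3 CPM in Lkb1-/- MEFs. That is 3.94-fold lower (log2 fold change -1.98, SE 0.10, FDR = 2.0e-13). Xbp1 (chr11:5520659-5525893), whose RNA is spliced by IRE1α into the form for the active factor, stood at 67.2, 78.9 and 80.4 CPM in WT and at 42.6, 56.5 and 59.6 CPM in Lkb1-/- MEFs (log2 fold change -0.51, SE 0.19, FDR = 0.028). Its groups did not overlap, but its call was lost without replicate 1 of Lkb1-/- (FDR = 0.068) or replicate 2 of WT (FDR = 0.075). Ern1, which encodes IRE1α, was lower by 0.16 on the log2 scale (FDR = 0.012), a call lost in 5 of 15 alternatives, upper quartile scaling among them (log2 fold change -0.08).

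The 10 ER chaperones and quality control genes moved less, with log2 fold changes from -0.69 to 0.52, 2 called higher and 4 lower. Hspa5 (chr2:34771970-34777547), which encodes BiP, the main ER chaperone and the usual readout of the unfolded protein response, stood at 1070, 1110 and 1120 CPM in WT and at 875, 950 and 1050 CPM in Lkb1-/- MEFs. It was not called (log2 fold change -0.20, SE 0.09, FDR = 0.078), although its groups did not overlap, and 7 of 15 alternatives called it lower. Hsp90b1 (chr10:86690209-86705509), the ER chaperone GRP94, stood at 1280, 1350 and 1340 CPM in WT and at 766, 810 and 882 CPM in Lkb1-/- MEFs, 1.61-fold lower (log2 fold change -0.69, SE 0.11, FDR = 1.2e-05).

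Herpud1 (chr8:94386438-94395377), a part of the machinery that degrades ER proteins, stood at 47.5, 49.8 and 45.1 CPM in WT and at 28.8, 35.5 and 32 CPM in Lkb1-/- MEFs (log2 fold change -0.56, SE 0.12, FDR = 5.1e-04). Manf, a secreted ER stress factor, and Dnajb9, a cochaperone of BiP, were also lower, by 0.42 and 0.32 on the log2 scale. The call of Dnajb9 was lost without replicate 2 of WT (FDR = 0.12). Pdia4, a disulfide isomerase, and Creld2 were higher, by 0.52 (FDR = 0.0027) and 0.35 (FDR = 0.0086). The call of Creld2 was lost without replicate 1 of WT (FDR = 0.051) or replicate 3 of Lkb1-/- (FDR = 0.069). Calr, Sdf2l1 and Edem1 were not called. The members with an element printed above thus moved in both directions, with Chac1, Slc7a11 and Herpud1 lower and Vldlr higher among those with a CARE, and Hsp90b1 lower and Creld2 higher among those with an ERSE.

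**Figure D2:**
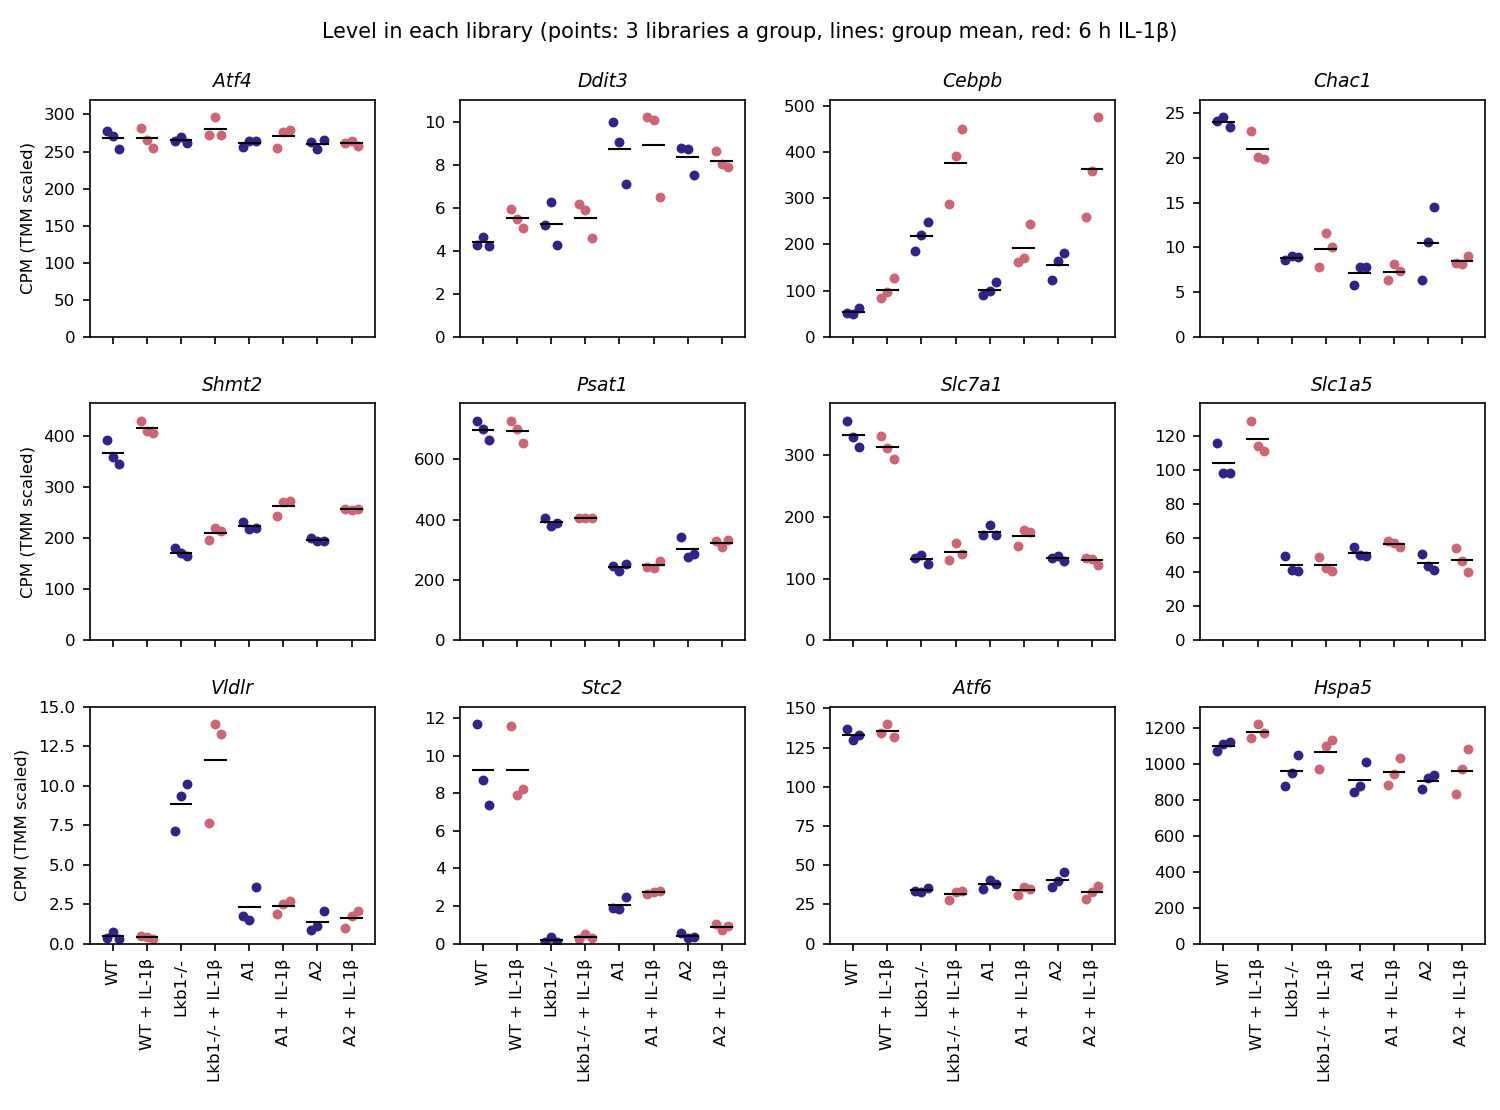
Each panel plots 1 member by group, with the level in TMM-scaled CPM on a linear axis from 0, points for the 3 libraries of a group and lines for the group means; red points are libraries given IL-1β for 6 hours. Atf4 lies near 267 CPM in WT and 265 CPM in Lkb1-/- MEFs without treatment, while Atf6, Chac1, Shmt2, Slc7a1 and Slc1a5 step down from WT to every other genotype and Vldlr steps up.

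Per length, the members' levels in untreated Lkb1-/- MEFs ran from 518 CPM per kb of exon for the ER chaperone Calr through 226 for Hspa5 and 203 for Hsp90b1 down to 0.0359 for Stc2. Cebpb had 145 CPM per kb and Atf4 had 112, above every enzyme and transporter of the list there. In untreated WT MEFs Psat1 had 164 CPM per kb and Shmt2 had 118, beside 113 for Atf4.

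Other genes of the pathway, 55 in all, were taken from lists of the same kind, and 53 could be tested. Over all genes tested, 30.1% were called higher and 25.8% lower in this comparison of untreated Lkb1-/- with WT MEFs. Of the 12 aminoacyl-tRNA synthetases, which load amino acids onto tRNA and many of which ATF4 induces, 10 were called lower and 0 higher in untreated Lkb1-/- MEFs, and their median difference was -0.48 on the log2 scale. The called synthetases ranged from Mars, the methionine enzyme, at -1.12 (SE 0.06, FDR = 1.6e-12) to Yars, the tyrosine enzyme, at -0.18 (SE 0.07, FDR = 0.032). Of 7 genes for the eIF2α kinases and their counterparts, 2 were called higher and 2 lower, close to the shares over all genes. Eif2ak4, the kinase GCN2 that senses uncharged tRNA, fell most, at -0.71 (SE 0.05, FDR = 2.7e-10), and Ppp1r15b, a subunit of the eIF2α phosphatase, the largest rise, at 0.32 (FDR = 0.01). Of 11 other ATF4 targets tested, 3 were called higher and 5 lower, from Slc7a3, an arginine importer, at 1.94 to Nupr1, a stress-induced nuclear protein, at -2.32. Of 23 other ER stress genes tested, 4 were called higher and 8 lower, from the protease gene Mbtps1 at 0.48 to Dnajc3, an inhibitor of the eIF2α kinases, at -2.12.

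Neighbors on the chromosome moved with some of these members. In untreated Lkb1-/- over WT MEFs the median over chromosome 10 was -0.44 on the log2 scale, beside 0.06 over the other chromosomes, and 49.3% of the genes on chromosome 10 were called lower, beside 24.7%. The members on chromosome 10 are Shmt2 (-1.09), Hsp90b1 (-0.69), Ddit3 (0.26) and Ddit4 (0.78), and the genes within 5 Mb of each had medians of -0.50, -0.42, -0.51 and -0.48. For Atf6 the 80 genes within 5 Mb had a median of -0.63, and for Psat1 the 37 neighbors had a median of -0.29. Around Chac1, Slc7a1 and Slc7a5, the medians were 0.06, 0.19 and 0.22, on the other side of 0 from the member. The part of these regional shifts in the members' changes was not tested.

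**Figure D3:**
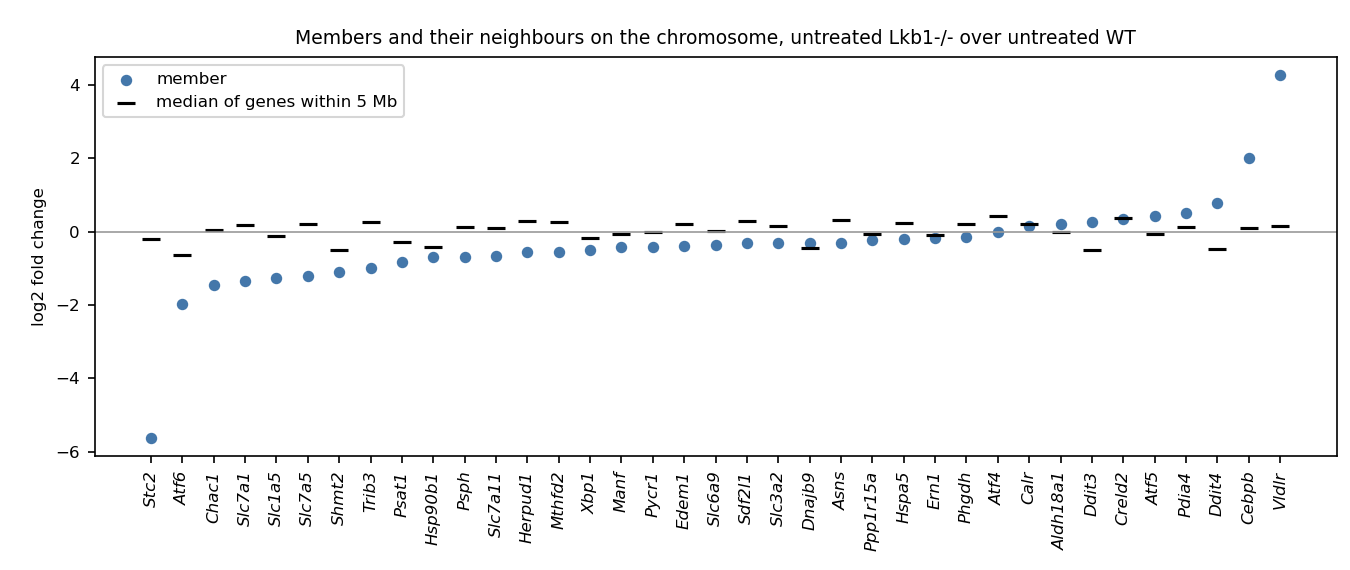
Points give the log2 fold change of each tested member in untreated Lkb1-/- over untreated WT MEFs, ordered by value, and dashes the median over the genes within 5 Mb on either side. The dashes stay between -0.63 and 0.43, and those of Atf6, Shmt2, Hsp90b1 and Dnajb9 lie below 0 beside members that are lower.

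After IL-1β the same comparison gave 7 members higher and 17 lower of 37, with backgrounds of 30.2% and 27.1%. The members' median log2 fold change was -0.24, beside 0.03 over all genes. Of the members, 17 were called lower under both treatments and 6 higher, namely Atf5, Cebpb, Ddit4, Vldlr, Pdia4 and Creld2, and 0 were called in opposite directions. Over all genes tested, 23.3% were called lower and 26.6% higher under both treatments. Aldh18a1 was called higher only after IL-1β (log2 fold change 0.30, FDR = 0.031). After IL-1β, alternatives lost the call of Ern1 in 9 of 15 cases, of Herpud1 in 7 and of Aldh18a1 in 6. They lost that of Atf5 in 3 and those of Trib3, Phgdh and Slc3a2 in 2 each. The libraries behind both treatments are separate, but they come from the same lines. Same-numbered untreated and treated libraries also deviated together, with correlations of 0.130 to 0.332 in WT and 0.158 to 0.376 in Lkb1-/- MEFs. The calls under both treatments are thus set side by side and not taken as separate evidence. Cebpb stood at 83.6, 96.7 and 127 CPM in WT and at 287, 392 and 450 CPM in Lkb1-/- MEFs after IL-1β (log2 fold change 1.88, SE 0.22, FDR = 2.9e-07). Stc2, Atf6, Slc1a5, Slc7a1 and Slc7a5 were lower by 4.70, 2.11, 1.42, 1.13 and 1.13 on the log2 scale. Atf4 stood at 282, 266 and 255 CPM in WT and at 272, 296 and 273 CPM in Lkb1-/- MEFs (log2 fold change 0.07, SE 0.05, FDR = 0.3). Hspa5 stood at 1140, 1220 and 1170 CPM in WT and at 971, 1100 and 1130 CPM in Lkb1-/- MEFs (log2 fold change -0.15, SE 0.09, FDR = 0.19).

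Ddit3 stood at 5.95, 5.49 and 5.07 CPM in WT and at 6.16, 5.88 and 4.58 CPM in Lkb1-/- MEFs after IL-1β, with overlap (log2 fold change 0.01, FDR = 0.96). Xbp1 stood at 67.0, 74.7 and 85.0 CPM in WT and at 47.4, 64.9 and 70.5 CPM in Lkb1-/- MEFs. It was not called there (log2 fold change -0.31, FDR = 0.18), and neither were Slc7a11 (-0.44, FDR = 0.13) and Asns (-0.16, FDR = 0.16). A fit blocked on replicate number, which called 65.9% of all genes, called 32 members. It added Xbp1 (-0.32, FDR = 6.8e-04), Slc7a11 (-0.47, FDR = 0.017), Asns (-0.16), Hspa5 (-0.15), Calr (0.18), Dnajb9 (-0.21), Sdf2l1 (-0.25) and Edem1 (-0.28). Under upper quartile scaling the median over all genes moved from 0.03 to 0.14, and 40.9% of the called members were higher in place of 29.2%.

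Each Crtc2-deleted clone was then compared with Lkb1-/- MEFs, to ask which of these genes move when CRTC2 is removed in cells without LKB1. Vldlr, several amino acid enzymes and the Slc7a5 and Slc3a2 pair were lower in both clones, and Ddit3, Pycr1, Shmt2 and Ern1 were higher in both. The call of Shmt2 in clone A2 (0.20, FDR = 0.014) was lost in 3 of 15 alternatives, among them the fit without replicate 2 of Lkb1-/- (FDR = 0.051). In untreated clone A1, 6 members were called higher and 11 lower, with backgrounds of 18.9% and 16.4%. In untreated clone A2, 6 were called higher and 10 lower, with backgrounds of 17.1% and 15.1%. The members' medians were -0.07 and -0.04, beside 0.02 over all genes for each clone. Both comparisons use the same 3 Lkb1-/- libraries, so their values are given side by side and not as separate evidence. Without replicate 1 of clone A2, which correlated least with its group, 20 members were called in clone A2 against Lkb1-/- MEFs, 10 higher and 10 lower, beside 20.1% and 13.7% of all genes.

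Vldlr stood at 1.76, 1.49 and 3.61 CPM in clone A1 and at 0.866, 1.11 and 2.09 CPM in clone A2, below the 7.11, 9.37 and 10.1 CPM of untreated Lkb1-/- MEFs. The log2 fold changes were -1.95 (SE 0.35, FDR = 1.9e-04) and -2.71 (SE 0.37, FDR = 1.1e-05). Both clones still lay above each untreated WT library. Stc2 stood at 1.88, 1.85 and 2.46 CPM in clone A1 and at 0.544, 0.301 and 0.352 CPM in clone A2. It was called higher in clone A1 (log2 fold change 3.45, SE 0.37, FDR = 3.7e-07) and missed the threshold in clone A2 (1.10, SE 0.43, FDR = 0.055). With replicate number as a block, in a comparison where the libraries paired by number, Stc2 was called at the edge of the threshold there (1.10, SE 0.45, FDR = 0.05).

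Cebpb stood at 90.5, 99 and 118 CPM in clone A1 and at 123, 164 and 181 CPM in clone A2, beside 185 to 248 CPM in untreated Lkb1-/- MEFs. It was called lower in clone A1 (log2 fold change -1.08, SE 0.22, FDR = 5.3e-04) and not in clone A2 (-0.48, SE 0.22, FDR = 0.097). Ddit4 stood at 44.6, 54.6 and 66.5 CPM in Lkb1-/- MEFs, at 27.2, 31.6 and 38.3 CPM in clone A1 and at 32.5, 37.0 and 51.5 CPM in clone A2. It was called lower in clone A1 (-0.77, FDR = 0.011), a call lost without replicate 1 of clone A1 (FDR = 0.059) or replicate 3 of Lkb1-/- (FDR = 0.061), and not in clone A2 (-0.45, FDR = 0.14). For clone A2 the replicate numbers paired the libraries, and with the block Cebpb (-0.49, FDR = 4.6e-05) and Ddit4 (-0.46, FDR = 3.7e-05) were called lower. The blocked fit called 22 members and 45.9% of all genes, and also added Stc2, Trib3 (0.41, FDR = 0.026), Pdia4 (-0.15, FDR = 0.023) and Creld2 (0.20, FDR = 0.005).

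Ddit3 stood at 10, 9.07 and 7.12 CPM in clone A1 and at 8.80, 8.73 and 7.51 CPM in clone A2, above all 3 untreated Lkb1-/- libraries. The log2 fold changes were 0.73 (SE 0.17, FDR = 0.0018) and 0.67 (SE 0.17, FDR = 0.0042), and both calls held with unstranded counts. Pycr1, the last enzyme of proline synthesis, stood at 4.71, 6.80 and 7.17 CPM in Lkb1-/- MEFs, at 7.44, 9.39 and 10.9 CPM in clone A1 and at 7.45, 12.5 and 12.4 CPM in clone A2. It was called higher in clone A1 (0.57, FDR = 0.044) and in clone A2 (0.79, FDR = 0.0069). In clone A1 its call was lost in 4 of the 6 fits without 1 library, with FDR from 0.061 to 0.19.

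Aldh18a1, the first enzyme of proline synthesis, stood at 161, 177 and 178 CPM in Lkb1-/- MEFs, at 106, 110 and 125 CPM in clone A1 and at 98.5, 115 and 135 CPM in clone A2. It was lower by 0.60 and 0.57 on the log2 scale in the clones. Slc7a5 stood at 177, 174 and 153 CPM in Lkb1-/- MEFs, at 123, 119 and 118 CPM in clone A1 and at 105, 95 and 94.4 CPM in clone A2, lower by 0.48 and 0.77. So the first and the last gene of proline synthesis moved apart in both clones, and Slc7a5 lay further from the WT level than in Lkb1-/- MEFs. Atf5 stood at 25.3, 28.9 and 26.8 CPM in Lkb1-/- MEFs, at 23.2, 31.4 and 29.4 CPM in clone A1 and at 29.2, 36.8 and 42.8 CPM in clone A2. It was called higher in clone A2 (0.43, FDR = 0.047) but not in clone A1 (0.05, FDR = 0.84). The call in clone A2 was lost in 5 of 6 fits without 1 library, with FDR from 0.065 to 0.16, and with unstranded counts (0.41, FDR = 0.068).

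The anchors Atf4, Xbp1 and Hspa5 were not called in either untreated clone against Lkb1-/- MEFs. Atf4 stood at 256, 264 and 264 CPM in clone A1 and at 263, 253 and 266 CPM in clone A2. Xbp1 stood at 37.3, 39.9 and 50.2 CPM in clone A1 and at 41.2, 60.1 and 67.1 CPM in clone A2. The values of Hspa5 were 843, 877 and 1010 CPM in clone A1 and 859, 919 and 935 CPM in clone A2. Each of these ranges overlapped that of untreated Lkb1-/- MEFs.

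**Figure D4:**
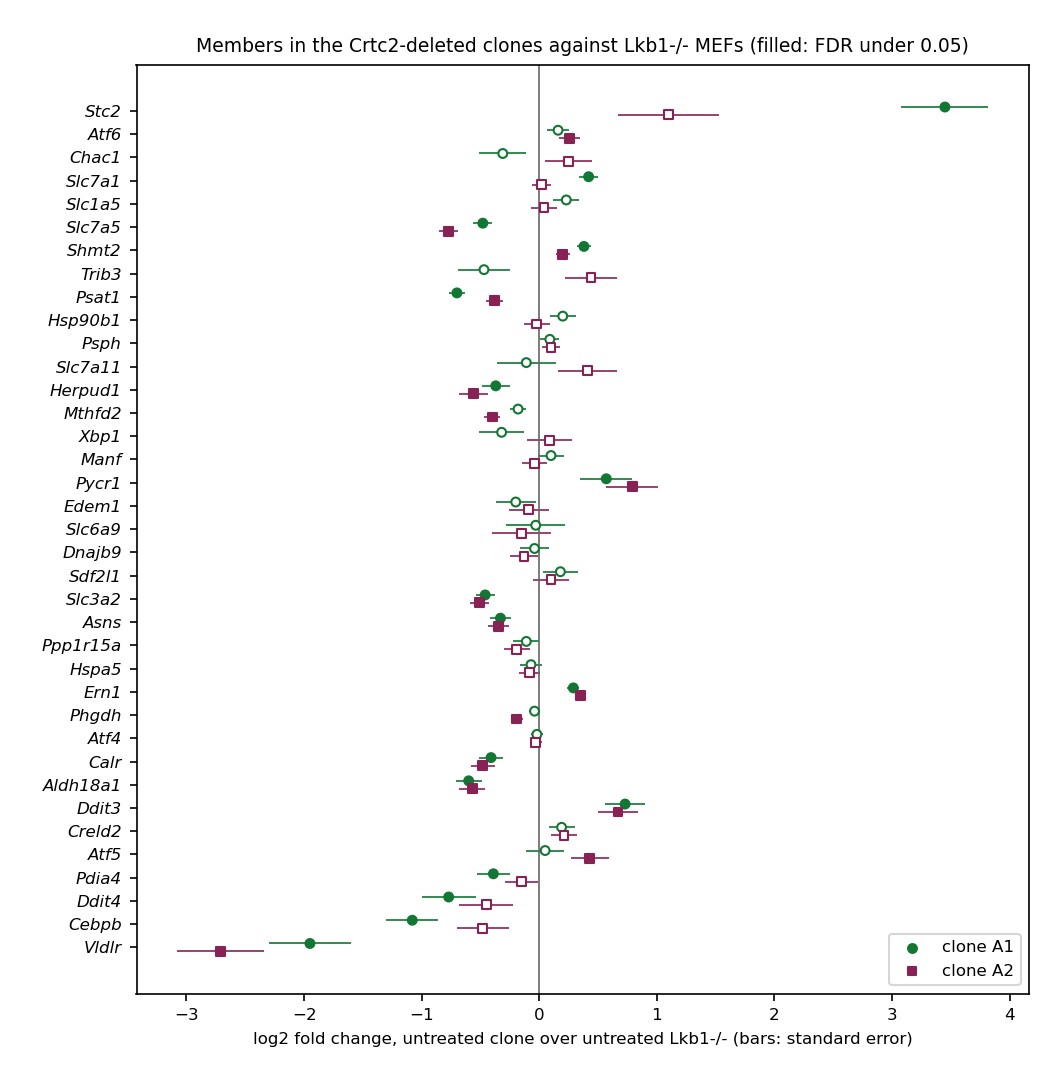
The horizontal axis gives the log2 fold change of each tested member in untreated clone A1 (circles) and clone A2 (squares) over untreated Lkb1-/- MEFs, with bars for the standard error and filled symbols for an FDR under 0.05; members are ordered by their change in Lkb1-/- over WT MEFs. Both clones share the same 3 Lkb1-/- libraries. Vldlr lies lowest in both, at -1.95 and -2.71, and Stc2 highest in both, at 3.45 and 1.10.

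Shifts of whole chromosomes lay beside many of these differences. Among members called lower in the clones, Slc7a5, Calr and Herpud1 lie on chromosome 8 and Psat1, Aldh18a1, Slc3a2 and Vldlr on chromosome 19. The call of Herpud1 in clone A1 (-0.37, FDR = 0.024) was lost without replicate 1 (FDR = 0.11) or 2 (FDR = 0.071) of clone A1 or replicate 2 of Lkb1-/- (FDR = 0.12). Against Lkb1-/- MEFs the median of chromosome 8 was -0.37 in clone A1 and -0.31 in clone A2, and that of chromosome 19 was -0.35 and -0.31. Among those called higher, Ddit3 and Shmt2 lie on chromosome 10, with medians of 0.39 and 0.27, and Pycr1 and Ern1 lie on chromosome 11, with 0.29 and 0.34. The part of these shifts in the members' differences was not tested. Markers of cell type moved as well, with the leukocyte marker Cd68 higher in clone A1 (0.57, FDR = 0.037) and in clone A2 (0.67, FDR = 0.016), while the leukocyte markers Ptprc and Itgam stayed at or near 0. The fibroblast gene Col1a2 was higher in clone A1 (1.96, FDR = 1.5e-05) and in clone A2 (1.02, FDR = 0.0073). The part of these genes in the members' differences was not tested. Against Lkb1-/- MEFs, Vldlr lay below the median of its chromosome in both clones and Stc2 above that of chromosome 11, while Cebpb in clone A1 (-1.08) lay beside a median of 0.05 for chromosome 2 and Ddit4 lay on the other side of 0 from chromosome 10.

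After IL-1β, clone A1 had 7 members called higher and 14 lower against Lkb1-/- MEFs (backgrounds 19.4% and 17.3%), and clone A2 had 6 higher and 8 lower (backgrounds 17.1% and 15.8%). Without replicate 1 of clone A1 or replicate 2 of Lkb1-/-, both given IL-1β, the counts in clone A1 were 7 higher and 9 lower, beside 14.7% and 14.3% of all genes called lower. The members' medians were -0.15 and -0.10, beside 0.01 over all genes for each. Vldlr was lower by 2.29 and 2.86 on the log2 scale, Stc2 higher by 2.93 (FDR = 7.2e-07) and 1.32 (FDR = 0.0062), and Ddit3 higher by 0.69 and 0.56. The call of Ddit3 in clone A2 was lost without replicate 3 of Lkb1-/- with IL-1β (FDR = 0.079). Cebpb was lower in clone A1 (-0.97, FDR = 0.0014), whereas its value in clone A2 was -0.05 (FDR = 0.9). Slc7a11 was lower in clone A1 (-0.78, FDR = 0.017), not in clone A2 (-0.08, FDR = 0.85). Without replicate 1 of clone A1 (FDR = 0.095) or replicate 2 of Lkb1-/- (FDR = 0.1) this call was lost.

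Xbp1 after IL-1β stood at 36.3, 38.5 and 48.6 CPM in clone A1 and at 43.8, 56.3 and 70.0 CPM in clone A2, and it was called lower in clone A1 (-0.57, FDR = 0.026). Leaving out either of 2 libraries of each group ended that call, with FDR from 0.082 to 0.11. Atf4 stood at 255, 277 and 279 CPM in clone A1 and at 261, 264 and 258 CPM in clone A2, and Ddit3 at 10.2, 10.1 and 6.49 CPM and at 8.65, 8.03 and 7.88 CPM. Hspa5 stood at 881, 942 and 1030 CPM in clone A1 and at 829, 968 and 1080 CPM in clone A2. With the replicate block, 26 members were called in clone A1 and 19 in clone A2, beside 49.1% and 46.6% of all genes. The block added Trib3 (-0.46), Chac1 (-0.42), Hspa5 (-0.16), Hsp90b1 (0.18) and Edem1 (-0.27) in clone A1. In clone A2 it added Ddit4 (-0.23), Asns (-0.24), Hspa5 (-0.15), Pdia4 (-0.19) and Dnajb9 (-0.25).

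Compared with untreated WT MEFs, 6 members were called higher and 25 lower in untreated clone A1 (backgrounds 30.3% and 25.1%), and 7 higher and 23 lower in clone A2 (backgrounds 32.7% and 27.9%). The medians were -0.39 and -0.45, beside 0.04 and 0.05 over all genes. The 3 comparisons with WT share the WT libraries, so their values are set side by side. Atf6 was 3.94-fold lower in Lkb1-/- MEFs, and its log2 fold changes in the clones were -1.82 and -1.72, so it stayed low in both. Slc7a5 had log2 fold changes of -1.71 and -2.0, Psat1 of -1.53 and -1.21, and Chac1 of -1.75 and -1.20. Ddit3 was called higher than in WT in clone A1 (0.99, SE 0.17, FDR = 3.9e-05) and in clone A2 (0.93, SE 0.17, FDR = 7.2e-05). With unstranded counts both values were 0.38, with an FDR of 0.047 and of 0.04. Of the 12 aminoacyl-tRNA synthetases, 11 were called lower than in WT in each clone, and Tars, the threonine enzyme, was called higher in clone A1 (0.22, FDR = 0.027).

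The 2 clones carry the same labelled genotype, and they differed from each other in part of the members. In untreated cells 4 members were called higher and 6 lower in clone A2 than in clone A1 (backgrounds 15.8% and 16.7%), and after IL-1β 5 higher and 3 lower (backgrounds 15.1% and 15.6%). The members' medians were -0.01 and -0.00, beside 0.02 and 0.01 over all genes. Stc2 differed most in both states, with log2 differences of -2.35 (SE 0.33, FDR = 1.1e-05) and -1.62 (SE 0.30, FDR = 2.5e-04). Cebpb was higher in clone A2 after IL-1β, at 259, 359 and 475 CPM beside 162, 171 and 245 CPM in clone A1 (0.92, SE 0.22, FDR = 0.0026). Psat1 was higher and Slc7a1 lower in clone A2 under both treatments. The count of 10 in untreated cells moved to 6, 2 higher and 4 lower, without replicate 1 of clone A1 (12.1% and 14.5% of all genes). It moved to 5, 2 higher and 3 lower, without replicate 2 of clone A2 (13.4% and 14.3%). Without replicate 1 of clone A2 it moved to 14, 8 higher and 6 lower (18.1% and 16.1%). After IL-1β the counts were 2 higher and 4 lower without replicate 1 of clone A1 (12.3% and 14.9%) and 3 and 4 without replicate 3 of clone A2 (11.9% and 15.1%). They were 7 and 2 without replicate 3 of clone A1 (13.6% and 12.7%), and the count of 8 moved to 5 without replicate 2 of clone A1. After IL-1β the replicate numbers paired these libraries and the block gave 15 calls, beside 44.4% of all genes. It added Trib3 (0.52), Ddit4 (0.39), Xbp1 (0.45), Pdia4 (0.18), Mthfd2 (-0.18), Slc1a5 (-0.27) and Hsp90b1 (-0.25). Under upper quartile scaling, 50% of the called members after IL-1β were higher in clone A2, in place of 62.5%.

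Few genes of any kind were called after IL-1β for 6 hours, and the same held for the members. In WT MEFs 2 members were called higher and 0 lower (backgrounds 1.53% and 0.731%), in Lkb1-/- MEFs 3 and 0 (2.65% and 2.09%), in clone A1 2 and 0 (1.20% and 0.788%), and in clone A2 2 and 0 (2.81% and 2.86%). At an unadjusted p under 0.05 the counts were 4, 5, 3 and 9 of 37, beside 11.4%, 14.7%, 10.7% and 17.6% of all genes. The called members were Cebpb, Slc7a11 and Shmt2. Atf4 had log2 fold changes of 0.00, 0.08, 0.05 and 0.00 in WT, Lkb1-/-, clone A1 and clone A2, and Hspa5 had 0.10, 0.15, 0.06 and 0.09. Neither was called, and neither were Ddit3 and Xbp1.

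Cebpb was called higher after IL-1β in all 4 genotypes, and each library given IL-1β lay above every untreated library of its genotype. Its log2 fold changes were 0.91 (SE 0.22, FDR = 0.027) in WT, 0.79 (SE 0.22, FDR = 0.037) in Lkb1-/-, 0.91 (SE 0.22, FDR = 0.031) in clone A1 and 1.23 (SE 0.22, FDR = 0.001) in clone A2. In WT and in Lkb1-/- MEFs the call was lost without untreated replicate 1 or 2 or without IL-1β replicate 2 or 3, and in clone A1 also without untreated replicate 3, with FDR from 0.05 to 0.16. With the replicate block all 4 calls held.

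Slc7a11 stood at 17.6, 16.0 and 20 CPM in untreated WT libraries and at 37.9, 35.3 and 37.7 CPM after IL-1β (log2 fold change 1.05, SE 0.25, FDR = 0.022). In Lkb1-/- MEFs it went from 9.58, 12.9 and 11.7 CPM to 20.3, 33.7 and 27.5 CPM (1.26, SE 0.25, FDR = 0.0032). In both genotypes the treated libraries lay above the untreated ones. In clone A1 it stood at 7.0, 9.75 and 14.8 CPM and then at 11.6, 16.3 and 19.7 CPM, and in clone A2 at 9.69, 16.0 and 19.5 CPM and then at 24.8, 27.7 and 24.9 CPM. Neither clone passed the test, with 0.59 (FDR = 0.37) and 0.78 (FDR = 0.072), but with the replicate block both did, with 0.60 (FDR = 0.038) and 0.82 (FDR = 0.0015). The call in WT was lost in the 5 fits that left out a library other than untreated replicate 3, with FDR from 0.054 to 0.13. Of the stranded reads at this locus 80.9% lay on the strand of Slc7a11.

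Shmt2 rose less. It went from 180, 170 and 165 CPM to 196, 220 and 214 CPM in Lkb1-/- MEFs (log2 fold change 0.30, SE 0.06, FDR = 0.0037), from 201, 195 and 194 CPM to 257, 256 and 257 CPM in clone A2 (0.38, SE 0.06, FDR = 2.4e-04), and from 232, 217 and 220 CPM to 244, 270 and 273 CPM in clone A1 (0.23, SE 0.06, FDR = 0.043). In clone A1 the call was lost in the 5 fits that left out a library other than IL-1β replicate 1, with FDR from 0.06 to 0.19. It was also lost with unstranded counts (FDR = 0.058), with no filter (FDR = 0.055) and with only the groups compared (FDR = 0.067). In WT MEFs it went from 393, 359 and 346 CPM to 430, 410 and 407 CPM and was not called (0.19, FDR = 0.14), while the block gave an FDR of 0.032. With the block the counts of called members were 5 in WT, 4 in Lkb1-/-, 4 in clone A1 and 8 in clone A2, beside 9.30%, 14.8%, 9.61% and 17.9% of all genes. In WT the block added Shmt2, Slc1a5 (0.18) and, lower after IL-1β, Ddit4 (-0.29, FDR = 0.024), in Lkb1-/- MEFs it added Ern1, and in clone A1 Slc7a11 and Slc3a2. Without untreated replicate 1 of clone A2, 7 members were called there, 4 higher and 3 lower, beside 4.24% and 6.33% of all genes. Those the block added in clone A2 were Asns, Slc7a11, Slc3a2, Stc2, Atf6 and Ern1, with Atf6 lower and the others higher. Under upper quartile scaling 80% of the members called in clone A2 were higher, in place of 100%. None of the 12 synthetases was called in any response (0 in each genotype). Of all 55 pathway genes 0 to 2 were called, in responses where few genes of any kind were called.

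**Figure D5:**
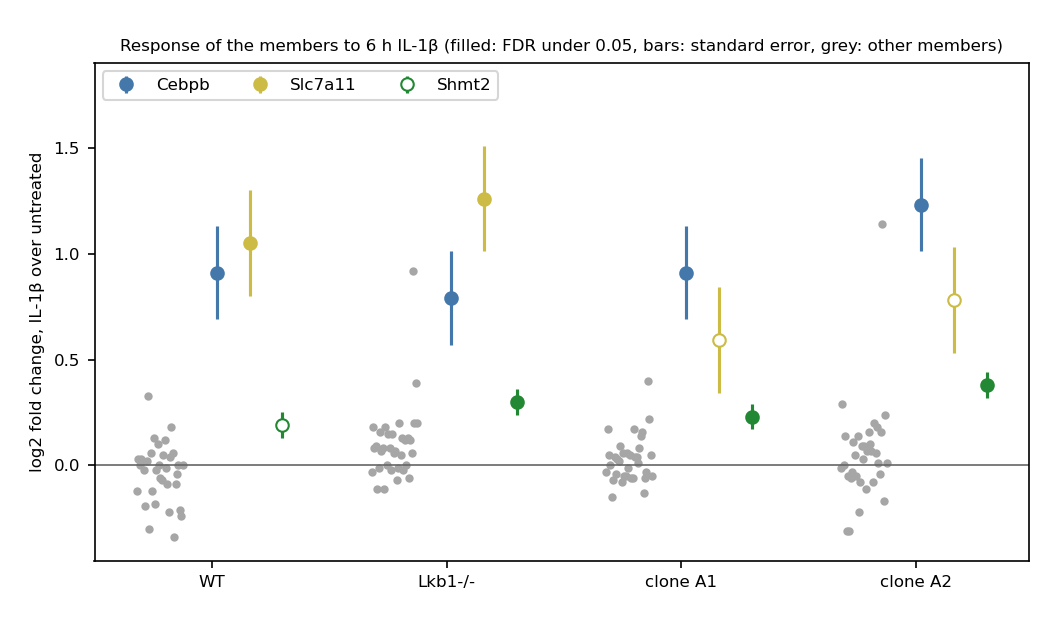
The vertical axis gives the log2 fold change of each tested member after 6 hours of IL-1β over untreated cells of the same genotype, with 3 libraries a group. Cebpb, Slc7a11 and Shmt2 are shown in color with standard errors, filled where the FDR was under 0.05, and the other members in grey. Cebpb lies between 0.79 and 1.23 in the 4 genotypes, and the grey points without a called response include Stc2 at 0.92 in Lkb1-/- and at 1.14 in clone A2.

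Whether the response itself differed between genotypes was tested as a difference of responses. No member was called between Lkb1-/- and WT MEFs (0 higher and 0 lower, backgrounds 0.137% and 0.108%), between clone A1 and Lkb1-/- MEFs (0 and 0, backgrounds 0% and 0.0285%) or between clone A2 and Lkb1-/- MEFs (0 and 0, backgrounds 0% and 0%). At an unadjusted p under 0.05 edgeR's test gave 0 members in each, beside 5.62%, 2.47% and 2.21% of all genes. DESeq2 called 0 members in each by FDR, beside 0.878%, 0.0871% and 0.0966% of the genes for which it gave one. The largest differences by size were 0.92 (SE 0.51) for Stc2 between Lkb1-/- and WT, -0.67 (SE 0.35) for Slc7a11 between clone A1 and Lkb1-/-, and -0.48 (SE 0.35) for Slc7a11 between clone A2 and Lkb1-/- MEFs. A fit blocked on replicate number by genotype had smaller errors. It called 3 members between Lkb1-/- and WT (5.72% of all genes), Trib3 (0.40, SE 0.11, FDR = 0.04), Herpud1 (0.26, SE 0.07, FDR = 0.026) and Xbp1 (0.20, SE 0.06, FDR = 0.049). Between clone A1 and Lkb1-/- it called Xbp1 (-0.24, SE 0.06, FDR = 0.047), 1 member beside 1.52% of all genes. Between clone A2 and Lkb1-/- it called Cebpb (0.43, SE 0.09, FDR = 0.014), 1 member beside 1.04% of all genes.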

How the data were processed

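The 24 libraries were paired-end RNA-seq of 3T3 MEFs. The authors trimmed reads with Trim Galore 0.6.0, aligned them with STAR 2.7.8a to GRCm38 with GENCODE annotation, and deposited read pairs per gene as raw counts. The paper and the labels name different library kits, so the kit is not settled. The counts of the second strand were used, which held 95.5% to 96.0% of the stranded pairs. The 4 lines naming no gene, with 26.7% to 34.4% of the pairs, were left out. Pairs that map to several genes are not counted, which can lower genes with close paralogs.

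Symbols and positions came from GENCODE M21 (55230 identifiers with a symbol, 241 without). Of 2 identifiers named Ddit3, 1 had 0 counts and was left out. edgeR 4.0.16 in R 4.3.3 fitted its older quasi-likelihood form to all 24 libraries with 1 coefficient per group, after filterByExpr (minimum count 10, minimum total 15) and TMM, with Benjamini-Hochberg adjustment over all 17522 genes for each of 17 contrasts. The common biological coefficient of variation was 0.129. The code was tested on simulated data. A permutation of 3 against 3 libraries cannot go below p = 0.1, so no such test is given. DESeq2 1.42.0, other scalings, filters, strand counts, sample sets, blocks and fits without 1 library were alternatives.

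Samples of different groups share replicate numbers in the labels. Deviations of same-numbered libraries correlated at 0.0355 to 0.589 over 84 pairs. Every such correlation was over 0.1 in Lkb1-/- against WT after IL-1β, clone A1 against Lkb1-/- after IL-1β, clone A2 against Lkb1-/- in both states, clone A2 against clone A1 after IL-1β, each IL-1β response and the difference between the responses of clone A2 and Lkb1-/-, and there the count of calls with the block and the members it added are given beside the result. Members and gene lists were chosen with earlier results of these data known. The value in every library is given for Atf4, Ddit3, Xbp1 and Hspa5, the 2 members of each list with the largest called change in untreated Lkb1-/- against WT, the members called after IL-1β, and the 3 largest called changes in each direction in each untreated clone. In each pathway list, the called genes with the largest and the smallest log2 fold change are named.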

Additional observations from a re-analysis of the deposited data

Results flagged for a closer look

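A direct test between the 2 Lkb1-/-/Crtc2-/- clones, which share a labelled genotype, called 10 of 37 members in untreated cells (27.0%) and 8 after IL-1β (21.6%). Over all genes, 15.8% were called higher and 16.7% lower in untreated cells, and 15.1% and 15.6% after IL-1β. The members were thus called no more often than genes at large. Values are log2 of clone A2 over clone A1, with edgeR's FDR. In untreated cells Trib3 (0.91, FDR = 0.0029), Cebpb (0.60, FDR = 0.038), Chac1 (0.56, FDR = 0.036) and Psat1 (0.32, FDR = 0.0013) were higher in clone A2. Stc2 (-2.35, FDR = 1.1e-05), Slc7a1 (-0.41, FDR = 4.0e-04), Slc7a5 (-0.29, FDR = 0.0065), Mthfd2 (-0.22, FDR = 0.027), Shmt2 (-0.18, FDR = 0.023) and Phgdh (-0.15, FDR = 0.032) were lower. After IL-1β Cebpb (0.92, FDR = 0.0026), Slc7a11 (0.70, FDR = 0.035), Atf5 (0.52, FDR = 0.018), Psat1 (0.39, FDR = 2.5e-04) and Ern1 (0.14, FDR = 0.048) were higher, and Stc2 (-1.62, FDR = 2.5e-04), Slc7a1 (-0.39, FDR = 6.8e-04) and Herpud1 (-0.36, FDR = 0.034) lower. Stc2, Cebpb, Psat1 and Slc7a1 differed in both states, in the same direction. The call of Chac1 was lost without replicate 1 or 2 of clone A1 (FDR = 0.16 and 0.051) or replicate 2 or 3 of clone A2 (FDR = 0.066 and 0.29), and that of Herpud1 without replicate 2 or 3 of clone A1 (FDR = 0.064 and 0.16) or replicate 1 of clone A2 (FDR = 0.11). Of 15 alternatives, the calls of Ern1 after IL-1β were lost in 9, of Phgdh in 7, of Cebpb in untreated cells and of Shmt2 in 5 each, of Slc7a11 in 3, of Atf5 and Mthfd2 in 2 each and of Psat1 in untreated cells in 1. The calls of Trib3, Slc7a5 and, in both states, Slc7a1 and Stc2 held in all alternatives that tested them, as did those of Cebpb and Psat1 after IL-1β. Single libraries within a group of 3 were not tested as outlying. Untreated replicate 1 of clone A2 had the lowest mean correlation with its own group (0.9795), and without it 8 members were higher and 6 lower in untreated clone A2 than in clone A1, beside 18.1% and 16.1% of all genes.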

How the results depend on the processing

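Over the named members' results, 2897 values kept their direction and side of the threshold under the alternatives, 233 missed the threshold, 7 passed it (all Hspa5 in untreated Lkb1-/- against WT) and 4 reversed. The reversed values belong to Ddit3 in untreated Lkb1-/- against WT (-0.26 with unstranded counts) and to Atf4 (0.07 with upper quartile scaling, 0.02 with 10 counts in every library and 0.01 without untreated WT replicate 1, in a range of -0.11 to 0.01 without 1 library), and neither was called. The total counts of called members against WT and of the clones against Lkb1-/- moved by less than 1.5 times under every alternative. Of the counts by direction, those higher in untreated Lkb1-/- against WT moved from 6 to 3 without replicate 3 of Lkb1-/-, those higher in untreated clone A2 against Lkb1-/- from 6 to 10 without replicate 1 of clone A2, those lower in clone A1 after IL-1β from 14 to 9 without replicate 1 of clone A1 or 2 of Lkb1-/-, and those lower in clone A2 after IL-1β from 8 to 13 with the block. Without 1 library they were 23 to 28 in untreated Lkb1-/- against WT, 14 to 17 in untreated clone A1 and 14 to 20 in untreated clone A2 against Lkb1-/-.

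Clone A2 against A1 moved from 10 in untreated cells to 19 with the replicate block (46.3% of all genes called) and 6 with only the groups compared (27.9%). Without 1 library the count was 5 to 14. After IL-1β it moved from 8 to 15 with the block (44.4% of all genes called) and 5 to 9 without 1 library, with more members higher in some of these fits and more lower in others. The WT response moved from 2 to 4 with no filter, 5 with the block and 0 to 2 without 1 library, and was 0 without untreated replicate 1 or 2 or IL-1β replicate 2 or 3. The response of clone A1 moved from 2 to 1 with unstranded counts, 1 with only the groups compared, 4 with the block and 0 to 2 without 1 library, with 2 only without IL-1β replicate 1. The response of clone A2 moved from 2 to 5 with upper quartile scaling, 6 with no filter, 5 with 10 counts in every library, 8 with the block, 7 with DESeq2 and 2 to 7 without 1 library, with 7 without untreated replicate 1. The response differences moved from 0 to 3 (Lkb1-/- and WT: Trib3, Xbp1 and Herpud1), 1 (clone A1 and Lkb1-/-: Xbp1) and 1 (clone A2 and Lkb1-/-: Cebpb) with the replicate block within genotype, and from 0 to 1 with no filter for each clone. The causes were not tested.

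In other comparisons not every correlation of same-numbered libraries was over 0.1, although all were positive (lowest 0.0355). There the block moved the counts from 27 to 34 in untreated Lkb1-/- against WT (64.3% of all genes called) and from 17 to 24 in clone A1 against Lkb1-/- (48.1%). It moved them from 31 to 33 in clone A1 against WT (64.2%) and from 30 to 35 in clone A2 against WT (68.6%). The block ended no call. Depth limits Stc2 and Vldlr, which have few reads in 1 genotype, and Gdf15, which could not be tested.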
